A study of Bos taurus with 16 samples.

Results

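SCARA5 (ENSBTAG00000019636), FABP4 (ENSBTAG00000037526), GHR (ENSBTAG00000001335) and SPP1 (ENSBTAG00000005260) are 4 genes whose mRNA was much lower in bovine articular chondrocytes cultured with TGF-β2 than in the same cells cultured without it. They were picked out of the 19454 genes of the count table, by their gene identifiers, because of that response. Their TGF-β2 responses are therefore described here without a test. The effect of the Creb5 shRNA, which was not the stated reason for the choice, was tested. Earlier results of these data were known when the genes were chosen, so independence of the choice from that effect is not assured. The cells were superficial zone articular chondrocytes from the knees of 4 calves in their first weeks of life, which gave 16 libraries in 4 groups of 4 (1 library per calf in each group). All cells were cultured for 2 days, infected with lentivirus, kept for 5 days in 0.8 µg/ml puromycin to remove uninfected cells and then held on low attachment plates for 48 h. In condition A the medium held 100 ng/ml TGFα, a ligand of the EGF receptor, and in condition AB it held the same TGFα plus 20 ng/ml TGF-β2. The lentivirus encoded either shScramble, a control hairpin, or shCreb5, a hairpin against the transcription factor Creb5. All 4 groups therefore share TGFα, serum, viral infection and puromycin, and the knockdown rests on 1 Creb5 hairpin in a mixed pool of infected cells.

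TGF-β binds a pair of receptor kinases that phosphorylate SMAD2 and SMAD3, which then activate some genes and repress others. In the superficial zone this signal is known for maintaining lubricin, the surface lubricant encoded by PRG4. The 4 genes described here belong to different pathways. SCARA5 is a class A scavenger receptor that takes up ferritin, the iron storage protein. FABP4 is a cytoplasmic carrier of fatty acids, best known in adipocytes and macrophages. GHR is the receptor for growth hormone and signals through the kinase JAK2 to STAT5. SPP1 encodes osteopontin, a secreted phosphoprotein of the SIBLING family that binds integrins, CD44 and mineral.

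The libraries held 14710867 to 21853634 estimated counts (median 19721435). All 4 genes passed the filter on low counts, which 13372 genes passed over the 16 libraries, and none had counts equal to those of another gene in every library. Levels are given as CPM, the count relative to the TMM-scaled size of its library, and are compared for the same gene only, since the values are not per length. Of 12 chondrocyte markers 3 could be identified (COL11A1, HAPLN1 and PRG4). Their summed level was 9250 to 23220 CPM in the libraries of condition A and 28480 to 64880 CPM in those of condition AB. On average most of the sum in AB was PRG4, at a mean of 43460 CPM in shScramble and 32010 CPM in shCreb5 cells. Calf 2 differed, with COL11A1 at 11290 and PRG4 at 4247 CPM in shScramble cells in condition A. Of the 3 markers, PRG4 rose with TGF-β2 with both shRNAs, by 1.94 (SE 0.22) and 1.91 (SE 0.22) on the log2 scale, and COL11A1 in shCreb5 cells, by 1.11 (SE 0.23). COL11A1 was not called in shScramble cells (0.47, SE 0.29). HAPLN1 was not called with either shRNA (-0.09, SE 0.20, and 0.45, SE 0.16). The part of these marker changes in the responses of the 4 genes was not tested. The targeted gene CREB5 stood at 94.7 ± 24.5 CPM in shScramble and 65.4 ± 18.1 CPM in shCreb5 cells in condition A, and at 70.2 ± 11.6 and 36.4 ± 4.57 CPM in condition AB (SD, n = 4). It was lower in 4 of 4 calves in each condition, as were 8.47% of genes in A and 8.42% in AB. The log2 fold change of CREB5 was -0.54 (SE 0.08) in A and -0.96 (SE 0.10) in AB. Neither passed the test over all genes (edgeR adjusted p = 0.337 and 0.124). The libraries are of bulk RNA, in which fewer cells expressing a gene and less of its RNA per cell cannot be told apart.

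**Figure D1:**
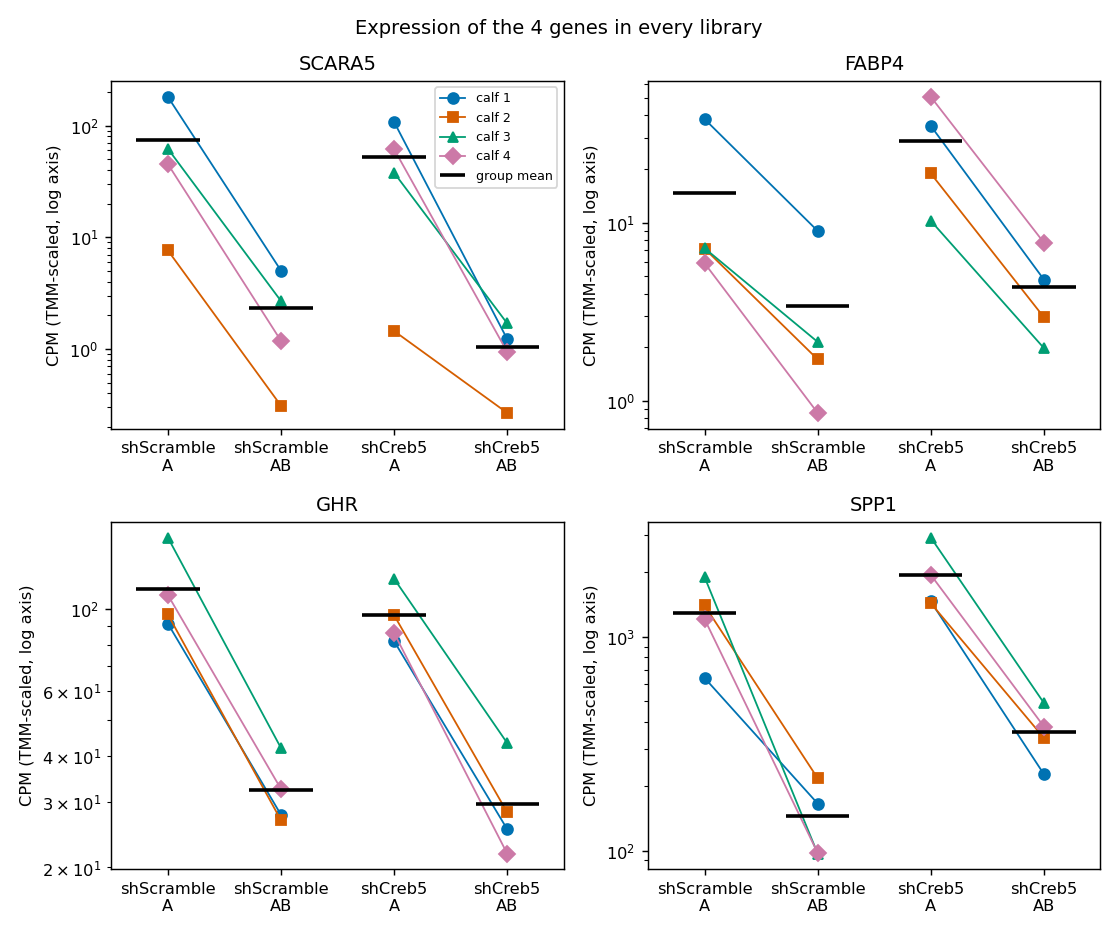
Level of each gene (CPM on a log axis) in every library, by group, with 1 colour per calf, a line from condition A to condition AB of the same calf and shRNA, and a black bar at the group mean. Every line falls for all 4 genes, and the calves lie far apart for SCARA5 and close together for GHR.

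SCARA5, the ferritin receptor, had the lowest log2 fold change of all genes between conditions AB and A, in shScramble cells (rank 1 of 12879 genes) and in shCreb5 cells (rank 1 of 12769). In shScramble cells in condition A it stood at 181, 7.63, 62.1 and 45.3 CPM in calves 1 to 4. In condition AB the same cells held 5.04, 0.311, 2.69 and 1.19 CPM. No library of condition AB reached the lowest of condition A. In shCreb5 cells SCARA5 was at 108, 1.45, 37.8 and 61.5 CPM in condition A. With TGF-β2 these cells held 1.23, 0.268, 1.70 and 0.942 CPM. Here the groups overlapped, through calf 2, whose level in condition A was below that of calf 3 in condition AB. The log2 fold change was -4.92 (SE 0.16) in shScramble and -5.51 (SE 0.41) in shCreb5 cells. Within each calf, TGF-β2 left 2.62 to 4.34% of the condition A level in shScramble cells and 1.14 to 18.5% in shCreb5 cells. The upper end belongs to calf 2, where SCARA5 had 31 counts in condition A and 5 in condition AB, so its ratio rests on few counts.

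The calves differed in SCARA5 far more than in most genes. In shScramble cells in condition A, the highest calf was 23.7 times the lowest, against a median of 1.68 over all genes, and 97.6% of genes had a smaller spread. In shCreb5 cells in condition A the ratio was 74.4 and in the condition AB groups it was 16.2 and 6.33. Calf 2 was the lowest in each group. Calf 1 was the highest in 3 of the 4 groups, and calf 3 was the highest in shCreb5 cells in condition AB.

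SPP1, osteopontin, had the next lowest log2 fold change of the 4 in shScramble cells. In condition A it stood at 642, 1401, 1902 and 1209.7 CPM in shScramble cells of calves 1 to 4. With TGF-β2 it stood at 166, 218, 96.8 and 97.5 CPM. In shCreb5 cells the levels were 1462, 1435, 2909.9 and 1946 CPM in condition A. In condition AB of shCreb5 they were 228, 336, 490.2 and 380.3 CPM. Conditions A and AB did not overlap with either shRNA. The log2 fold change was -3.13 (SE 0.36, rank 14 from the lowest) in shScramble and -2.43 (SE 0.12, rank 46) in shCreb5 cells. TGF-β2 left 5.09 to 25.9% of SPP1 in shScramble cells and 15.6 to 23.4% in shCreb5 cells, so the calves differed more in the first.

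FABP4, the fatty acid carrier, fell within every calf, on levels that differed between calves. In shScramble cells in condition A it stood at 38.1, 7.16, 7.19 and 5.92 CPM in calves 1 to 4. With TGF-β2 it stood at 8.99, 1.71, 2.14 and 0.856 CPM. The groups overlapped, since calf 1 held more FABP4 with TGF-β2 than the other calves held without it. In shCreb5 cells the levels were 34.9, 18.9, 10.3 and 50.8 CPM in condition A. In condition AB of shCreb5 they were 4.80, 2.95, 1.98 and 7.73 CPM, and these groups did not overlap. The log2 fold change was -2.10 (SE 0.17, rank 57) in shScramble and -2.69 (SE 0.12, rank 32) in shCreb5 cells. The share left was 14.5 to 29.8% in shScramble and 13.7 to 19.3% in shCreb5 cells.

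GHR, the growth hormone receptor, had the smallest of the 4 responses with either shRNA, and in shScramble cells the most even one across calves. In shScramble cells in condition A it stood at 91.3, 96.6, 156 and 109 CPM in calves 1 to 4. With TGF-β2 it stood at 27.8, 26.8, 42.1 and 32.6 CPM. In shCreb5 cells the levels were 81.8, 96.2, 121 and 86.0 CPM in condition A. In condition AB of shCreb5 they were 25.4, 28.2, 43.4 and 21.8 CPM. Conditions A and AB did not overlap with either shRNA, and calf 3 was the highest in each group. The log2 fold change was -1.78 (SE 0.09, rank 100) in shScramble and -1.73 (SE 0.10, rank 143) in shCreb5 cells, with 27.0 to 30.4% left in shScramble and 25.3 to 36.0% in shCreb5 cells.

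**Figure D2:**
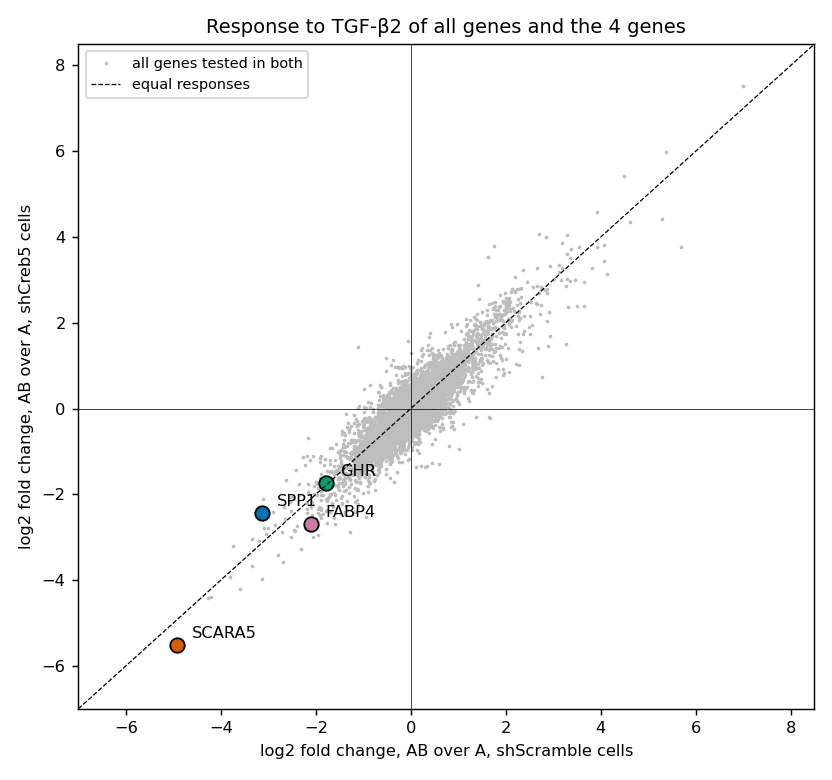
Log2 fold change of condition AB over condition A in shScramble cells (horizontal) and shCreb5 cells (vertical) for every gene tested in both, with the 4 genes marked and a dashed line at equal responses. SCARA5, at -4.92 and -5.51, lies below all other genes on both axes.

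As a background for these values, 1178 of 12879 genes (9.15%) were called lower with TGF-β2 in shScramble cells and 1857 of 12769 (14.5%) in shCreb5 cells at an adjusted p under 0.05. Levels of condition AB lay below every library of condition A for 4.38% of genes in shScramble and 5.29% in shCreb5 cells. A gene was lower in 4 of 4 calves for 21.3% of genes in shScramble and 24.3% in shCreb5 cells. The 4 genes were chosen from that response, so nothing is read from their place in these shares. With scaling by library totals alone, the median log2 fold change of all genes moved by -0.18 in shScramble and -0.16 in shCreb5 cells. The calls then split into 841 higher and 2341 lower in shScramble cells, in place of 1378 and 1178, and into 1243 and 3407 in shCreb5 cells, in place of 2027 and 1857. Under that scaling the 4 genes were lower still.

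The order of the group means, from the highest, was shScramble A, shCreb5 A, shScramble AB and shCreb5 AB for SCARA5 (74.0, 52.2, 2.31 and 1.03 CPM) and for GHR (113, 96.2, 32.3 and 29.7 CPM). For both genes the step from shCreb5 A to shScramble AB was larger than the SD of either group (for SCARA5 the libraries still overlapped), and the other steps were not. For FABP4 and SPP1 shCreb5 came before shScramble in each condition. The means of FABP4 were 28.7, 14.6, 4.36 and 3.42 CPM, and no step between neighbours exceeded the larger SD. The means of SPP1 were 1938, 1289, 359 and 145 CPM. For SPP1 the step from shScramble A to shCreb5 AB and that from shCreb5 AB to shScramble AB exceeded the larger SD, with no overlap of the libraries.

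**Figure D3:**
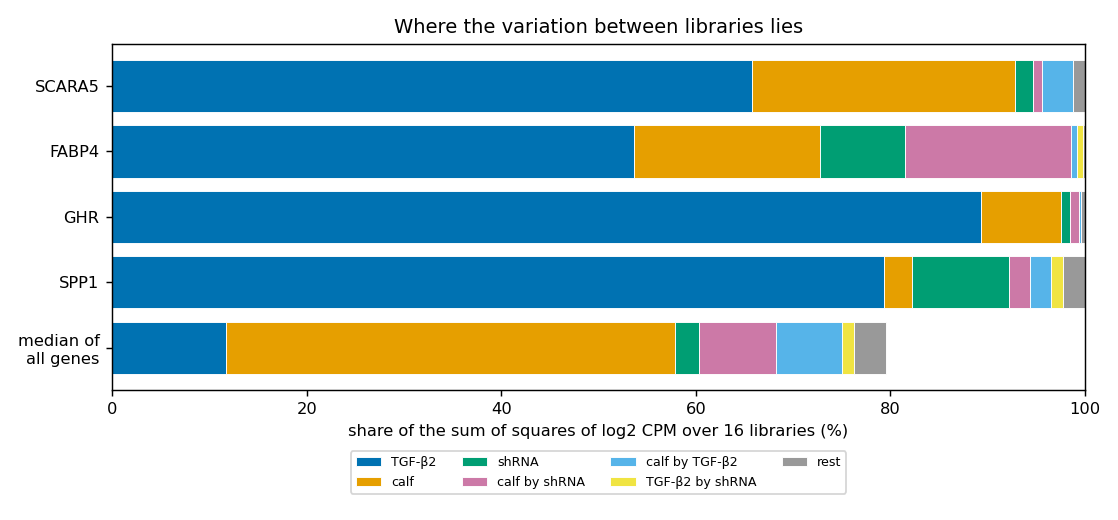
Share of the sum of squares of log2 CPM over the 16 libraries (horizontal, %) that goes with TGF-β2, calf, shRNA and their combinations, for the 4 genes and as the median of each share over all genes, whose bar need not reach 100. The TGF-β2 share is longest for GHR, at 89.3%, and the calf by shRNA share stands out for FABP4, at 17.1%.

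The variation among the 16 libraries was divided in different ways for the 4 genes. TGF-β2 took 89.3% of the sum of squares of GHR, 79.3% of SPP1, 65.8% of SCARA5 and 53.7% of FABP4, against a median of 11.7% over all genes. TGF-β2 chose the genes, so nothing is read from that share. The shares of a gene make up its whole sum of squares, so a large TGF-β2 share lowers the others. Nothing is therefore read from a share below that of the median gene. Calf took 27.0% of SCARA5 and 19.1% of FABP4, but 8.27% of GHR and 2.89% of SPP1 (median gene 46.2%). Within the 4 groups, 66.7 to 81.9% of genes had a smaller spread between calves than SPP1. The shRNA took 10.0% of SPP1 and 8.72% of FABP4, and 1.89% of SCARA5 and 0.971% of GHR (median gene 2.39%). Among the 4 genes FABP4 had the largest share for an shRNA effect that differed between calves, 17.1%. The median gene had 7.92%, and 79.5% of genes had a smaller value than FABP4.

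Whether shCreb5 changed the 4 genes was tested within each condition, comparing the cultures of the same calf. In edgeR 0 of 12922 genes in condition A and 0 of 12664 in condition AB passed an adjusted p under 0.05 (0% in both), the 4 genes included. At an unadjusted p under 0.05 there were 1144 genes (8.85%) in A and 1078 (8.51%) in AB. DESeq2, as an alternative, called 79 genes (0.63%) in A and 55 (0.417%) in AB, and none of the 4 genes was among them. limma-voom called 0 and 1.

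SPP1 levels were higher in shCreb5 than in shScramble cells of 4 of 4 calves, both in condition A and in condition AB. That pattern was found for 9.98% of genes in A and 9.62% in AB. Without TGF-β2 the log2 fold change was 0.63 (SE 0.19, 95% interval 0.19 to 1.07, adjusted p = 0.523, from 0.0877 with DESeq2 to 1 over the alternatives). With TGF-β2 it was 1.32 (SE 0.32, 95% interval 0.56 to 2.08, adjusted p = 0.584, from 0.199 to 1 over the alternatives). Every shCreb5 library then lay above every shScramble library, from 228 upwards against at most 218 CPM, a pattern found for 0.505% of genes. By size the value ranked 12 from the highest of 12664. The gap was wide in calves 3 and 4, at 5.07 and 3.90 times the shScramble level, and smaller in calves 1 and 2, at 1.37 and 1.54 times. The A and AB counts of each calf and shRNA were then added up, most SPP1 counts coming from condition A. In these sums SPP1 was higher in 4 of 4 calves (7.32% of genes). They hold the same libraries, so that direction is no further result. The fit of the sums gave a log2 fold change of 0.71 (SE 0.16, edgeR adjusted p = 0.578). In that fit edgeR called 0 of 13607 genes (0%), limma-voom called 1, and 993 (7.3%) had an unadjusted p under 0.05. DESeq2 on the same sums called 79 genes (0.589%), SPP1 among them (adjusted p = 0.00595, the lowest over the alternatives, which reached 1), so the call depends on the tool.

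In condition A SCARA5 levels were lower in the shCreb5 cells of 3 of 4 calves, with a log2 fold change of -0.68 (SE 0.36, 95% interval -1.53 to 0.17, adjusted p = 0.615). The exception was calf 4, which rose from 45.3 to 61.5 CPM. In condition AB it was lower in 4 of 4 calves, as were 8.42% of genes, with a log2 fold change of -1.0 (SE 0.36, 95% interval -1.85 to -0.16, adjusted p = 0.584). The counts there were 107, 6, 49 and 18 with shScramble and 22, 5, 24 and 15 with shCreb5, so that calf 1 carried most of the difference in counts. When a calf was left out, the value in condition AB lay between -0.50 (without calf 1) and -1.22 (without calf 4), and that in condition A between -0.35 (without calf 2) and -1.08 (without calf 4).

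FABP4 differed between calves in the direction of its shCreb5 effect. Without TGF-β2 the value was 1.17 on the log2 scale (SE 0.50, 95% interval -0.01 to 2.36, adjusted p = 0.568), and it was higher in 3 of 4 calves. It was 0.55 without calf 4 and 1.69 without calf 1. In calf 4 it was 8.58 times the shScramble level in condition A and 9.03 times in condition AB, in cells that share an infection. In calf 1 it was 0.916 times in A and 0.534 times in AB. In condition AB the log2 fold change was 0.54 (SE 0.58, 95% interval -0.83 to 1.91, adjusted p = 0.746), with 2 calves higher and 2 lower, and without calf 4 it was -0.18.

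In condition A GHR was lower in the shCreb5 cells of 4 of 4 calves, as were 8.47% of genes, by a log2 fold change of -0.22 (SE 0.09, 95% interval -0.43 to -0.005, adjusted p = 0.557). In condition AB it was lower in 2 calves and higher in 2, with a log2 fold change of -0.16 (SE 0.13, 95% interval -0.47 to 0.15, adjusted p = 0.683). The intervals of GHR were the narrowest of the 4 genes and leave room for a fall of at most 0.47 on the log2 scale in AB.

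**Figure D4:**
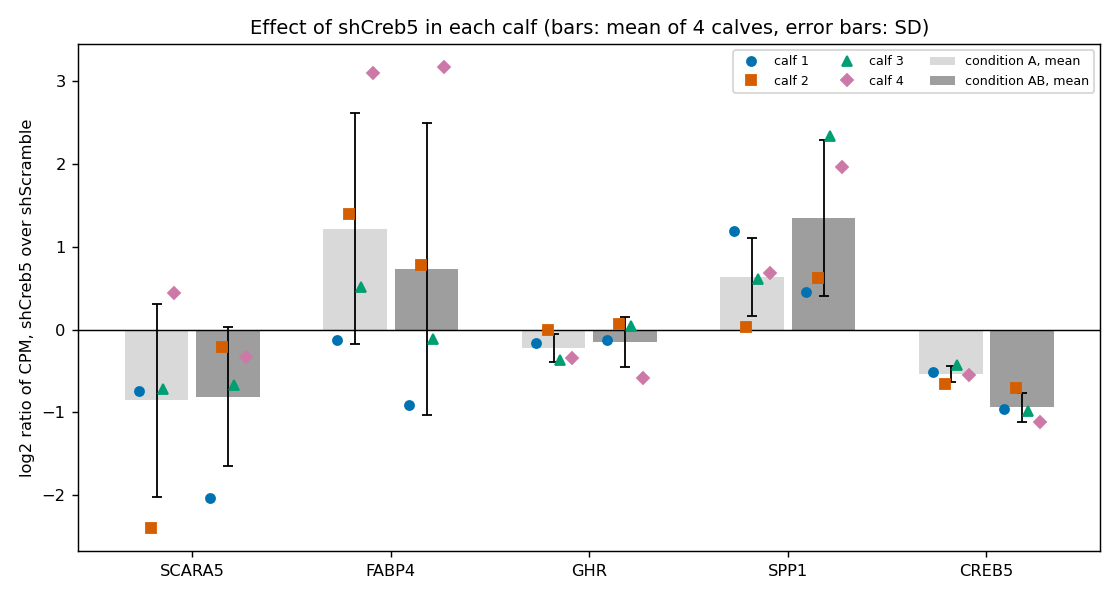
Log2 ratio of shCreb5 over shScramble CPM in each calf (coloured points) in condition A (light bars) and condition AB (dark bars) for the 4 genes and CREB5, with bars at the mean of 4 calves and error bars for the SD. SPP1 lies above 0 and CREB5 below 0 in every calf, and FABP4 in calf 4 lies above 3 in both conditions.

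The difference between the shCreb5 effects in AB and A, which is also the difference between the TGF-β2 responses of shCreb5 and shScramble cells, was tested over the 16 libraries. In edgeR 0 of 13372 genes passed (0%), with 571 (4.27%) at an unadjusted p under 0.05, and DESeq2 called 9 (0.0463%), with none of the 4 among them. For SPP1 the difference was 0.58 (SE 0.43, 95% interval -0.35 to 1.51, adjusted p = 0.961), with -0.73, 0.59, 1.73 and 1.28 in calves 1 to 4. It was 1.02 without calf 1, 0.31 without calf 3 and 0.38 without calf 4. For FABP4 it was -0.69 (SE 0.73, 95% interval -2.27 to 0.89, adjusted p = 0.962). For SCARA5 it was -0.45 (SE 0.66, 95% interval -1.88 to 0.97, adjusted p = 0.97), and the calves ran from -1.29 to 2.18. It was -0.0074 without calf 1, -0.23 without calf 4 and -0.84 without calf 2. For GHR it was 0.06 (SE 0.15, 95% interval -0.27 to 0.39, adjusted p = 0.989).

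Genes related to the 4 by pathway were taken from lists, in which only part of the symbols could be identified. The counts below cover those identified and tested. Symbols were known from the study's tables of the shCreb5 comparisons, so the identified genes need not be a neutral sample of each list. The bar for a call was an adjusted p under 0.05 in edgeR, and 9.15% of all genes in shScramble and 14.5% in shCreb5 cells were called lower, with 10.7% and 15.9% called higher. In the shCreb5 comparisons no gene of any of these lists was called in either condition.

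Around SCARA5, 5 other genes of iron and ferritin handling were tested. In shScramble cells 1 was called higher and 2 lower with TGF-β2, with a median log2 fold change of -0.37 over the 5, and in shCreb5 cells 0 were called higher and 1 lower, with a median of -0.28. ACO1, an aconitase that binds the iron-responsive elements of mRNAs when iron is low, fell with both shRNAs, by a log2 fold change of -0.68 (SE 0.10) and -1.01 (SE 0.11). FTH1, the heavy chain of ferritin, was at 8538 and 7306 CPM in shScramble cells without and with TGF-β2 and was not called (log2 fold change -0.08, SE 0.27). Among class A scavenger receptors 1 other gene was tested, SCARA3, which fell by -0.78 (SE 0.11) and -1.19 (SE 0.13) on the log2 scale.

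Around FABP4, 6 other genes of adipocytes and lipid handling were tested, of which 1 was called lower in shScramble and 2 in shCreb5 cells, with 0 higher in either. CD36, a membrane receptor for fatty acids, fell with both shRNAs, by -2.09 (SE 0.26) and -2.11 (SE 0.32) on the log2 scale, from a low level of 3.94 CPM to 0.981 CPM in shScramble cells. The medians over the 6 genes were -0.12 and -0.46. The 1 other member of the fatty acid binding family tested, the retinoic acid carrier CRABP2, rose, by 0.76 (SE 0.17) and 0.41 (SE 0.11).

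Around GHR, 9 other genes of the growth hormone and IGF axis were tested. In shScramble cells 0 were called higher and 4 lower, and in shCreb5 cells 1 was called higher and 4 lower, with medians of -0.47 and -0.57. The 4 that fell were called with both shRNAs. IGFBP3, a carrier of IGF in the extracellular space, fell by -2.11 (SE 0.41) and -2.29 (SE 0.37) on the log2 scale. CISH, a feedback inhibitor of STAT5 signalling that growth hormone induces, fell by -1.69 (SE 0.20) and -1.45 (SE 0.23). SOCS2 of the same list was not called with either shRNA, at -0.47 (SE 0.18) and 0.35 (SE 0.20). IRS2, an adaptor of the insulin and IGF receptors, fell by -0.52 (SE 0.15) and -1.23 (SE 0.19). IGF1R, the receptor of IGF1, fell by -0.37 (SE 0.09) and -0.57 (SE 0.10).

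Around SPP1, the 1 other SIBLING gene tested, DMP1, a matrix phosphoprotein of bone and dentin, was at 13.3 and 12.8 CPM in shScramble cells without and with TGF-β2 and was not called with either shRNA (log2 fold change -0.13, SE 0.23, and -0.12, SE 0.13). Of 3 receptors of osteopontin, 2 were called higher and 0 lower in shScramble cells, and 1 higher and 1 lower in shCreb5 cells. ITGA5, an integrin chain, rose with both shRNAs, by 1.33 (SE 0.12) and 1.14 (SE 0.14). Of 2 other genes of mineralization and hypertrophy, none was called in shScramble cells, and 1 was called higher and 1 lower in shCreb5 cells.

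For comparison, 5 of 9 direct TGF-β targets were called higher and 0 lower with each shRNA. TGFBI, a secreted matrix protein, rose by 3.93 (SE 0.34) and 3.77 (SE 0.57) on the log2 scale. LTBP2, a latent TGF-β binding protein of the matrix, rose by 1.51 (SE 0.20) and 1.17 (SE 0.21). SKIL, a feedback inhibitor of SMADs, rose by 0.97 (SE 0.12) and 1.17 (SE 0.11), and TGIF1, a corepressor of SMADs, by 0.65 (SE 0.11) and 0.76 (SE 0.09).

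The list genes called with 1 shRNA, named with their values known, were STEAP3 (log2 fold change 0.64), TF (-1.91) and CD44 (0.66) in shScramble cells, at -0.0062, -1.14 and 0.35 in shCreb5 cells. In shCreb5 cells they were AGPAT2 (-0.57), JAK2 (0.68), ITGB3 (-1.49), ENPP1 (0.97) and ANKH (-0.37), at 0.01, 0.30, -1.02, 0.62 and -0.15 in shScramble cells. None passed the test of the difference between the 2 responses.

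**Figure D5:**
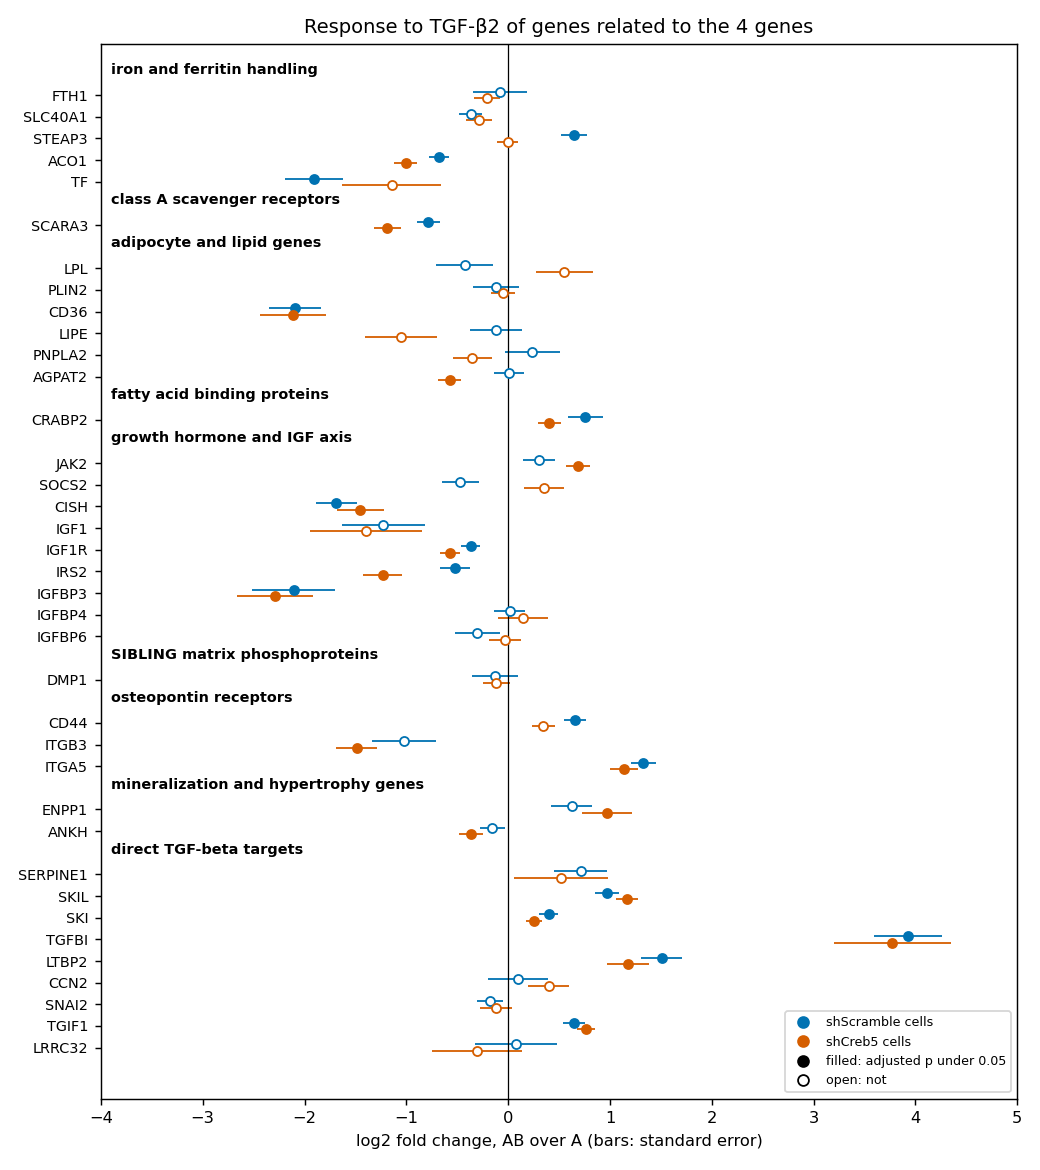
Log2 fold change of condition AB over condition A (horizontal, bars for the standard error) of the identified genes of each pathway list other than the 4 genes, in shScramble (blue) and shCreb5 cells (orange), filled where the adjusted p was under 0.05. CD36, CISH, IGFBP3, SCARA3 and ACO1 lie to the left of 0 and filled with both shRNAs, and TGFBI lies farthest to the right.

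Genes that were most like each of the 4 over the 16 libraries were ranked by the Pearson correlation of log2 CPM, as a description, among 13372 genes, of which few have a symbol. With each calf centred on its mean, so that TGF-β2 is the main source of variation, the most like SCARA5 were ENSBTAG00000013213 (r = 0.981) and GPNMB, a transmembrane glycoprotein (r = 0.977). The most like FABP4 was CTSV, a lysosomal cathepsin (r = 0.959), and the most like GHR was ENSBTAG00000046467 (r = 0.991). The most like SPP1 were PDE8B, a phosphodiesterase that degrades cAMP (r = 0.976), and CALD1, an actin-binding protein (r = 0.963). Over the same libraries the correlations among the 4 genes lay between 0.738 (FABP4 and GHR) and 0.945 (SCARA5 and GHR). The 4 genes were chosen for their fall with TGF-β2, so nothing is read from these correlations.

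With each group centred on its mean, which leaves the differences between calves, the most like SCARA5 was DLX3, a homeobox transcription factor (r = 0.976). DLX3 stood at 127.5, 5.31, 32.1 and 32.6 CPM in shScramble cells of calves 1 to 4 in condition A, low in calf 2 and high in calf 1 as SCARA5 was. The most like FABP4 were UCHL1, a ubiquitin hydrolase (r = 0.912), and PCSK1N, an inhibitor of a prohormone convertase, which was at 2.45 CPM or less in every library (r = 0.893). UCHL1 stood at 16.8 CPM with shScramble and 73.2 CPM with shCreb5 in calf 4 in condition A, and at 97.5 and 93.7 CPM in calf 1, and within each of these calves the shRNAs came in the same order as for FABP4. The most like GHR among genes with a symbol was CSNK1A1, a casein kinase (r = 0.924), and the most like SPP1 was PYGL, a glycogen phosphorylase (r = 0.901). The 4 genes themselves were not alike by this measure, with r from -0.592 (FABP4 and GHR) to 0.476 (SCARA5 and FABP4). Libraries of the same calf share a donor, and those of the same calf and shRNA share an infection, so these 16 points are not independent. With Spearman's correlation 3 and 4 of each 12 named genes and identifiers were again among the nearest.

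Markers of other cell types that these cultures could hold were read beside the 4 genes. Of the adipocyte markers 1 of 8 was identified, LIPE, at 1.23 to 7.46 CPM, and it was not called with TGF-β2 or shCreb5. Of the macrophage and leukocyte markers 3 of 9 were identified. Their summed level ranged from 23.3 to 42.5 CPM in shScramble A, 25.0 to 94.3 in shCreb5 A, 14.5 to 34.3 in shScramble AB and 12.3 to 30.8 CPM in shCreb5 AB. CD68, a lysosomal protein of macrophages, fell with TGF-β2, by -0.90 (SE 0.21) and -1.80 (SE 0.30) on the log2 scale. It stood at 72.6 CPM in calf 3 with shCreb5 in condition A, the library in which SPP1 was highest, and at 4.30 to 16.4 CPM in the other 3 calves of that group. Calf 3 was also the highest for both genes in shScramble A and shCreb5 AB. In shScramble AB it was the highest for CD68 (15.2 CPM) and the lowest for SPP1 (96.8 CPM). CD14 was not called, and MRC1 was at 1.17 CPM or less and was listed at 0 in 3 libraries, all of them shScramble AB. Of the endothelial markers 2 of 8 were identified. VWF fell by -0.89 (SE 0.16) and -1.60 (SE 0.21). TEK did not fall, at 0.32 (SE 0.19) and 0.51 (SE 0.20), and was not called. Of the fibroblast and synovial lining markers 2 of 8 were identified, and both rose, among them DPT by 7.0 (SE 0.17) and 7.53 (SE 0.33). Of the osteoblast markers 1 of 7 was identified, DMP1, given above, and of the erythroid and muscle markers none. In the comparison of shCreb5 with shScramble no marker was called. In condition A, CD68 (log2 fold change 0.86, SE 0.24, adjusted p = 0.519), VWF (0.72, SE 0.18, adjusted p = 0.509) and THY1 of the fibroblast list (1.08, SE 0.25, adjusted p = 0.509) were each higher with shCreb5 in 4 of 4 calves. So were 9.98% of all genes, and SPP1 differed in the same direction. In condition AB the values were 0.0082, -0.013 and 0.72, with 3, 1 and 3 of 4 calves higher. The other identified markers of these lists were mixed in condition A. DPT was at -0.93 (SE 0.37) and TEK at -0.40 (SE 0.17), with 0 of 4 calves higher for each. Of all genes 8.47% were lower in 4 of 4 calves there. CD14 was at 0.08 (SE 0.11), with 2 of 4 calves higher. MRC1 was higher in 4 of 4 calves but was too low to be tested there. The part of these cell types in the TGF-β2 responses and shCreb5 differences of the 4 genes was not tested.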

How the data were processed

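Poly-A RNA libraries of 16 cultures (4 groups of 4 calves) were made with KAPA mRNA HyperPrep kits and sequenced on a NextSeq instrument. The authors quantified transcripts with Salmon on bovine genome UMD3.1, within bcbio-nextgen, and summed them to genes with tximport. The deposited table holds estimated counts as whole numbers, which were used as they stand, for 19454 genes. Estimated counts spread reads between similar transcripts, so near-identical copies may share them. The study tested with DESeq2 and the calf as a covariate.

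Here each comparison was fitted on its own libraries with edgeR 4.0.16 in R 4.3.3 (glmQLFit and glmQLFTest, TMM, filterByExpr, calf as block) and p-values were adjusted by Benjamini-Hochberg over all genes tested, with a threshold of 0.05. SE is the log2 fold change divided by the root of F, intervals are 95% from the fit, and 2 was the prior count behind log2 CPM. The numbers in the labels mark the calf, which the study's methods name. Libraries of the same calf deviated together (correlation of deviations from the group mean 0.132 to 0.837, median 0.67, 24 pairs). For different calves the correlation was -0.516 to 0.203 (median -0.234, 72 pairs), so the ranges overlapped. Centring on the group mean by itself lowers the correlations of different calves. DESeq2 1.42.0, limma 3.58.1 (voom), another filter, no filter, library totals, 1 fit of 16 libraries, no block and leaving out each calf were tried. The fits were tested on simulated data. Symbols came from the gene names of supplementary tables (3157 identifiers), of which only part was at hand. The study describes these tables as its genes differentially expressed with shCreb5. The genes that could be named therefore need not be a neutral sample of all genes. The fold changes and p-values in those tables were not used. RNA quality was given by the study for the set and not per library. Of the named genes most like each of the 4, the 3 nearest by each measure were taken, those without a symbol being left out beyond 2. List genes were named where called with TGF-β2 with both shRNAs, at most 4 per list, or where of the same family. FTH1, SOCS2, COL11A1, HAPLN1, PRG4, CD68, CD14, MRC1, VWF, THY1, LIPE and DPT were outside that rule, and were picked with their values known. The 4 genes and all lists were chosen with earlier results of these data known. Sequences were not used here.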

Additional observations from a re-analysis of the deposited data

Results flagged for a closer look

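FABP4 in shScramble cells in condition A had 1 calf far from the others. Calf 1 stood at 38.1 CPM and the other 3 calves between 5.92 and 7.19 CPM, a gap of 0.897 of the range of log2 CPM, above the Dixon limit for 4 values. It was the 1 set with a value apart out of 40 sets of 4 values examined, where chance gives about 2. Calf 1 was also the highest of its group with shScramble and TGF-β2, at 8.99 CPM.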

How the results depend on the processing

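Over 24 values of the 4 genes, 276 of 280 alternatives kept the direction and, where tested, the side of the threshold, or moved an untested value by less than its SD. The tested values began at an adjusted p of 0.523 to 0.989 in edgeR, so few could change side. The untested values were judged by direction and size alone, against the SD between calves. The shCreb5 effect on FABP4 in condition AB ran from -0.18 to 1.20 when a calf was left out, and was negative without calf 4. The difference between conditions for GHR ran from -0.048 to 0.16, and was negative without calf 3. With DESeq2 SPP1 passed with conditions summed (0.71). With library totals only the TGF-β2 response of GHR in shScramble cells was -1.96 in place of -1.78, where the median of all genes moved by -0.18. The causes were not tested. SCARA5 could not be given a value under the filter of at least 10 counts in the fits of single libraries of condition AB, since it was dropped there. In the summed counts it was kept.

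Counts of genes called moved more. DESeq2 called 79, 55, 9 and 79 genes for shCreb5 in A, in AB, for their difference and for the sum. limma-voom called 1 in AB and 1 in the sum, no filter gave 17 in AB, 1 fit of 16 libraries gave 6 in AB, and an average over both conditions, added after the data were seen, gave 14. Leaving out a calf gave 0 to 1 in A, 0 to 2 in AB and 0 to 1 in the sum, and 1366 to 1926 (shScramble) and 1962 to 3829 (shCreb5) TGF-β2 calls. The TGF-β2 counts moved most without calf 3 (1366 and 2408) and, in shCreb5 cells, without calf 4 (1962). Without the replicate block TGF-β2 called 202 genes in shScramble and 194 in shCreb5 cells, in place of 2556 and 3884. In condition AB calf 2 held 6 and 5 counts of SCARA5, which limits that ratio.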
